A study of Rattus norvegicus with 20 samples.

Results

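Across the development of liver lesions in the rat, 6 genes were followed: Defb1, Pcp4, Ctse, Pla2g7, Cryl1 and Ces1d. These 6, of 13337 genes with a named probe, were chosen on their signal in these same arrays: each was high in nodules that stain for cytokeratin-19 (CK-19) compared with the other groups, or stood out there against early foci. Their contrasts with CK-19-positive nodules, and those of Ces1d with early foci, are therefore given as a description, without a test. The arrays of the other groups also took part in the choice, and the tests below are to be read with that in mind. All 6 genes had 1 probe each on the array.

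The samples came from male Fischer rats under the Resistant-Hepatocyte (R-H) protocol, in which a single dose of diethylnitrosamine (DENA) initiates hepatocytes, and a diet with 2-acetylaminofluorene (2-AAF) together with partial hepatectomy (PH) favours the growth of the initiated cells. Lesions were cut out by laser microdissection. The 4 groups held 5 arrays each: control liver, early preneoplastic foci (EPFs, pools of foci taken 1 week after PH, from 60 foci in all), and single CK-19-negative and CK-19-positive nodules (10 nodules in all, taken 10 weeks after DENA). The 2 nodule groups were separated by CK-19 staining. Control tissue was random areas of liver, described in one place of the methods as normal and in another as from rats on the R-H protocol. The 2-AAF diet ended at about the time EPFs were taken, so that recent 2-AAF and PH cannot be told apart from lesion type. RNA came from a few animals per lesion type, and no label ties an array to a rat, so that arrays of a group may share an animal and p-values measure only the spread between arrays.

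The 6 genes have different known functions. Defb1 encodes a beta-defensin, a small antimicrobial peptide that epithelia make and secrete. Pcp4 encodes PEP-19, a small protein that binds calmodulin through an IQ motif and was first described in Purkinje cells. Ctse encodes cathepsin E, an aspartic protease of the endosomal compartment, best known from stomach and immune cells. Pla2g7 encodes the secreted platelet-activating factor acetylhydrolase, a phospholipase that circulates with lipoproteins and is made largely by macrophages. Cryl1 encodes L-gulonate dehydrogenase of the glucuronate pathway, by which liver passes glucuronic acid on to xylulose. Ces1d, long called Ces3, encodes a carboxylesterase of the hepatocyte endoplasmic reticulum that hydrolyses drug esters and stored triacylglycerol. CK-19 itself, encoded by Krt19, is a keratin of bile duct cells, of the oval cells that expand after 2-AAF and PH, and of a subset of liver tumours.

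All 5 CK-19-positive nodules lay above all 15 other arrays for each of the 6 genes, which the choice of the genes made likely. Of the 6102 genes tested, 3.62% had this property. Below that shared top the genes followed 4 different courses. Ctse and Pla2g7 stood near their control level in EPFs and in CK-19-negative nodules. Defb1 and Pcp4 were intermediate in both. Cryl1 went up in steps from control to EPFs to CK-19-negative nodules. Ces1d was bright in control liver and in both nodule groups, and low in EPFs.

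**Figure D1:**
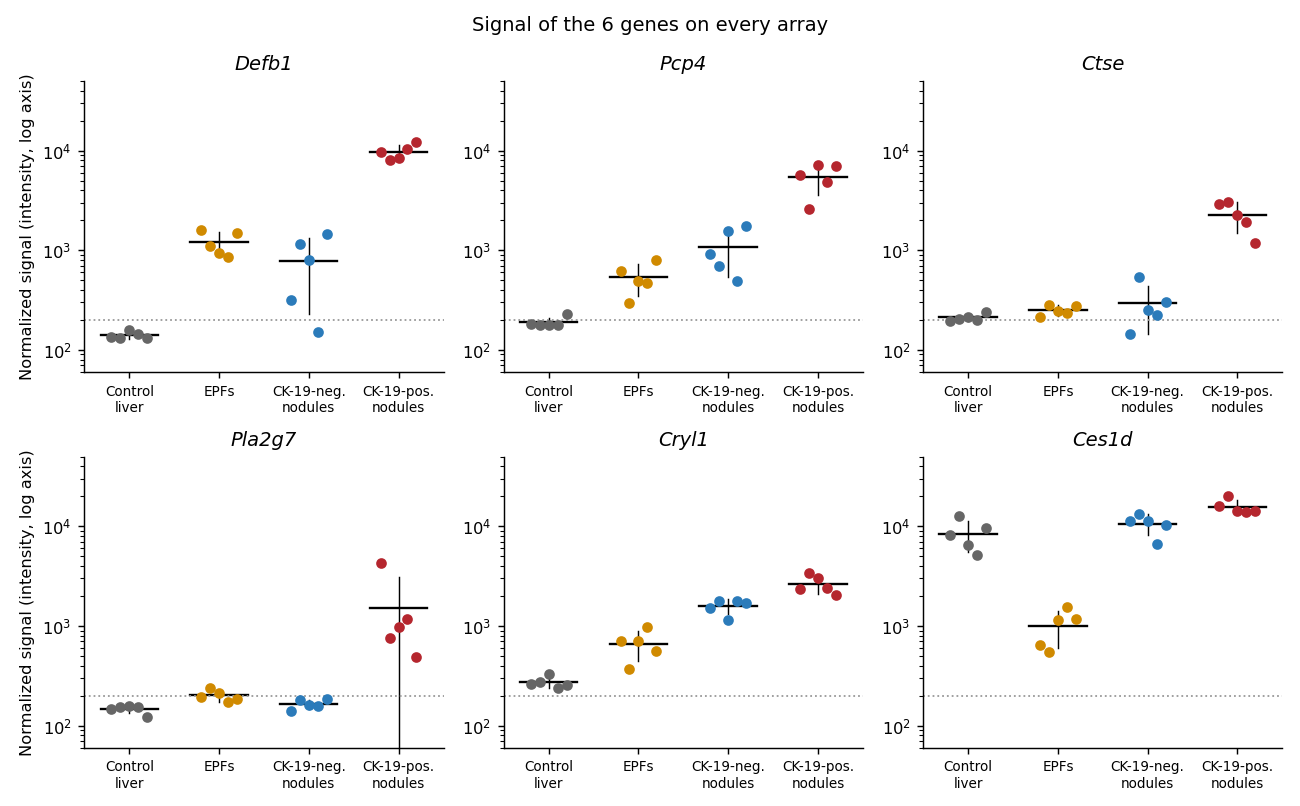
Normalized signal (intensity, log axis) of the 6 genes on each of the 20 arrays, by group; the horizontal line is the group mean, the vertical bar 1 SD (n = 5), and the dotted line the signal of 200 used as the minimum for testing. Pla2g7 in CK-19-positive nodules has an SD (1547) larger than its mean (1532), so that the lower bar leaves the log axis. CK-19-positive nodules are at the top in every panel, while EPFs and CK-19-negative nodules differ from panel to panel.

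The values are quantile-normalized intensities on a linear scale. A gene was tested if its signal was over 200 on at least 5 arrays, and it was called if limma's Benjamini-Hochberg adjusted p was under 0.05 and the difference at least 2-fold. All 6 genes passed the filter, but Pla2g7 did so only through CK-19-positive nodules (2 of the other 15 arrays were over 200). The number of arrays outside CK-19-positive nodules over 200 was 9 for Defb1, 11 for Pcp4, 12 for Ctse and 15 each for Cryl1 and Ces1d. Signals below about 200 are close to background, and log2 differences of genes at that level understate the change. In bulk tissue, fewer cells of a type and less RNA per cell cannot be told apart.

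Ctse was the first of the 2 genes that set CK-19-positive nodules apart from everything else. Its signals were 197.1, 206.4, 216.2, 199.8 and 241.4 in control liver and 212.1, 283.3, 246.3, 234.8 and 278.2 in EPFs. In CK-19-negative nodules they were 146.0, 539.3, 251.8, 224.1 and 305.9, and in CK-19-positive nodules 2911, 3073, 2277, 1905 and 1187. Control, EPF and CK-19-negative arrays overlapped, with CK-19-negative nodule 2 the brightest of them, and the dimmest CK-19-positive nodule was 2.20 times brighter than that nodule. Group means were 212 ± 17.9, 250.9 ± 29.9, 293 ± 149 and 2271 ± 768.5 (SD, n = 5 each) in that order. Against control, Ctse was not called in EPFs (log2 fold change 0.24, 95% interval -0.29 to 0.76, adjusted p = 0.4465 from limma) or in CK-19-negative nodules (0.34, -0.19 to 0.86, adjusted p = 0.4136). The fit shares 1 estimate of the spread among the groups. The SD of log2 signal of Ctse was 0.12 in control and 0.17 in EPFs, against 0.69 in CK-19-negative and 0.55 in CK-19-positive nodules. With only control and EPFs in the fit, Ctse had an adjusted p of 0.06134 from limma and was again not called. In CK-19-positive nodules its mean log2 signal was 3.35 above control, 3.01 above CK-19-negative nodules and 3.11 above EPFs.

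Pla2g7 had the same course at a signal close to background. Control arrays gave 145.8, 153.3, 158.3, 155.0 and 123.3, EPFs 192.9, 239.7, 214.1, 171.5 and 185.1, and CK-19-negative nodules 141.5, 179.8, 161.5, 156.7 and 184.2. In CK-19-positive nodules the signals were 4263, 761.4, 982.1, 1168 and 488.0. Nodule 1 was thus 8.74 times brighter than nodule 5 of the same type, and without nodule 1 the log2 difference of 2.94 from control became 2.46. All control and CK-19-negative arrays were under 200, and CK-19-positive nodules were at least 5.63-fold higher than either group when each dim array is set to 200. The 5 EPF arrays lay above the 5 control arrays, and the difference of 0.44 on the log2 scale was under 2-fold and not called. Its adjusted p from limma was 0.2669 in the fit of all 20 arrays and 0.003105 with only these 2 groups in the fit, and it ranged from 0.003105 to 1 over the alternatives. The first fit shares 1 estimate of the spread among the groups, and the SD of log2 signal was 1.17 in CK-19-positive nodules against 0.15 in control and 0.19 in EPFs. With a background level subtracted before log2 the difference became 1.61 and was called. CK-19-negative nodules were 0.16 from control on the log2 scale (adjusted p = 0.7908 in the fit of all arrays) and overlapped with it.

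Since Ctse and Pla2g7 moved together over the 20 arrays (Pearson r = 0.92 of log2 signals, the highest of any pair of the 6, with the difference between CK-19-positive nodules and the rest included), the sequence around their starts is shown. Both run 5′ to 3′ on the gene's strand, from 250 bases before to 50 after the start, from RefSeq on GRCr8, at chr13:45643965-45644264 (+) for Ctse and chr9:24901698-24901997 (-) for Pla2g7. Capitals mark a match to the AP-1 motif TGANTCA.
Ctse: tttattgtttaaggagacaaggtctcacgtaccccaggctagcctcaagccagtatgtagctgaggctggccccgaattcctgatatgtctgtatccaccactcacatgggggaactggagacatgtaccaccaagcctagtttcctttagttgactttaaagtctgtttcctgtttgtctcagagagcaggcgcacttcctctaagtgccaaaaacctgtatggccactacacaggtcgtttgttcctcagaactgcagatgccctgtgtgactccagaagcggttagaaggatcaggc
Pla2g7: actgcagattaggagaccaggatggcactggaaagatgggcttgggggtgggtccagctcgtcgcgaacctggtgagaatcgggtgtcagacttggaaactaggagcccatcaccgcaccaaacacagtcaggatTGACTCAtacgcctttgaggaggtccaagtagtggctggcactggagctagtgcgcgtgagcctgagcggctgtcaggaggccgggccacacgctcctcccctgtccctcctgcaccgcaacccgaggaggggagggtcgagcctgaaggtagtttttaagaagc
A promoter was found for 5 of the 6 genes, all but Defb1. They were searched on both strands for the AP-1 motif TGANTCA, the core of the antioxidant response element TGACNNNGC, the nuclear receptor half-site AGGTCA and the TATA box TATAAA. The AP-1 and antioxidant motifs share their first letters and could overlap. The single match in the 5 promoters was the AP-1 motif of Pla2g7, TGACTCA at -115 to -109 from the start. This motif is in 7.33% of the 27457 rat promoters of the same length, and the other 3 are in 12.2%, 15.7% and 14.3%, in the order given. A match is a description of letters and no evidence of binding.

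Defb1 had the largest distance between control and CK-19-positive nodules of the 6. In control liver it lay at background, at 133.5, 130.3, 158.3, 145.5 and 131.0. In EPFs the signals were 1609, 1113, 945.4, 857.3 and 1486, and in CK-19-positive nodules 9789, 8089, 8482, 10391 and 12139. The CK-19-negative group was split, with 314.6, 1168, 801.3, 152.7 and 1453. Nodule 4 was inside the control range and nodule 5 close to the brightest EPF pool, whereas every EPF array was above every control array. Group means were 139.7 ± 12.03 in control liver, 1202 ± 331 in EPFs, 778 ± 551 in CK-19-negative and 9778 ± 1619 in CK-19-positive nodules (SD, n = 5 each).

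Against control, Defb1 was called in EPFs (log2 fold change 3.06, SE 0.40, adjusted p = 8.545e-07 from limma) and in CK-19-negative nodules (2.06, SE 0.40, adjusted p = 0.0009397). As all control arrays were under 200, these are lower bounds of at least 5.83-fold and at least 2.90-fold, and at least 48.4-fold in CK-19-positive nodules. The fit shares 1 estimate of the spread among the groups. The SD of log2 signal was 1.37 in CK-19-negative nodules against 0.12 in control and 0.40 in EPFs. With only control and CK-19-negative nodules in the fit, the adjusted p was 0.01458 from limma. The methods' t-test gave 0.08855 and did not call this difference. The log2 signal in CK-19-positive nodules was 6.12 above control, second among the 6102 genes tested, 4.06 above CK-19-negative nodules and 3.05 above EPFs. EPFs and CK-19-negative nodules differed by 1.01 (95% interval 0.19 to 1.83, adjusted p = 0.03625 from limma), a call close to both thresholds. It was lost on leaving out CK-19-negative nodule 1 (0.79) or 4 (0.53), or EPF pool 1 (0.89), 2 (1.03) or 5 (0.92).

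Pcp4 also rose in both EPFs and CK-19-negative nodules. Control liver gave 181.1, 177.9, 179.0, 178.5 and 228.3, and EPFs 613.7, 294.4, 494.1, 473.3 and 807.6. The CK-19-negative nodules gave 914.3, 703.6, 1576, 489.8 and 1745, and the CK-19-positive ones 5649, 2587, 7231, 4833 and 6955. All EPF and all CK-19-negative arrays were above all controls, while EPFs and CK-19-negative nodules overlapped. CK-19-positive nodule 2, the dimmest of its type, was 1.48 times brighter than CK-19-negative nodule 5. Means were 189 ± 22.02, 537 ± 189.6, 1086 ± 549 and 5451 ± 1875 (SD, n = 5 each), from control and EPFs to CK-19-negative and CK-19-positive nodules.

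The log2 fold change of Pcp4 was 1.44 in EPFs (SE 0.31, adjusted p = 0.0004474 from limma) and 2.37 in CK-19-negative nodules (SE 0.31, adjusted p = 1.107e-05). With signals under 300 raised to 300, the difference in EPFs fell to 0.77 and lost its call. The direct difference between EPFs and CK-19-negative nodules was -0.93 (95% interval -1.58 to -0.29, adjusted p = 0.015), which passed the adjusted p but not 2-fold. It reached 2-fold and was called on leaving out CK-19-negative nodule 2 (-1.05) or 4 (-1.18), or EPF pool 1 (-1.001) or 5 (-1.10). In CK-19-positive nodules the log2 signal was 4.77 above control, 3.33 above EPFs and 2.40 above CK-19-negative nodules.

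Cryl1 was the only one of the 6 whose arrays separated at every step of the order control, EPFs, CK-19-negative and CK-19-positive nodules. The share of all tested genes with this full order was not counted. The first step alone, every EPF array above every control, was a property of 21.9% of them, and the choice of the genes made the last step likely. Control signals were 263.0, 275.2, 330.7, 241.0 and 255.3, and those of EPFs 699.4, 372.3, 714.7, 967.1 and 555.0. CK-19-negative nodules had 1519, 1786, 1161, 1775 and 1707, and CK-19-positive nodules 2366, 3373, 3040, 2384 and 2063. No array of one group overlapped with the next, although the last step was small: CK-19-positive nodule 5 was 1.16 times brighter than CK-19-negative nodule 2. Means were 273 ± 34.5, 662 ± 219.5, 1590 ± 262 and 2645 ± 541 (SD, n = 5 each).

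The change of Cryl1 from control was 1.22 in EPFs on the log2 scale (SE 0.19, adjusted p = 1.137e-05 from limma) and 2.53 in CK-19-negative nodules (SE 0.19, adjusted p = 2.754e-09). EPFs and CK-19-negative nodules differed by -1.32 (95% interval -1.71 to -0.92, adjusted p = 5.493e-06). CK-19-positive nodules were 3.26 above control and 0.73 above CK-19-negative nodules, or 1.66-fold, so that nodules without CK-19 stood nearer to them than to control on the log2 scale.

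Ces1d was set apart by EPFs. Control liver had signals of 8259, 12658, 6469, 5206 and 9543, and EPFs 642.0, 547.3, 1147, 1543 and 1166. The nodules were in the range of control or brighter, with 11419, 13431, 11387, 6641 and 10427 in CK-19-negative and 15900, 19975, 14174, 13959 and 14407 in CK-19-positive nodules. Every EPF array was below every other array, and the control and CK-19-negative arrays overlapped over most of their range. CK-19-positive nodule 4 was 1.04 times brighter than CK-19-negative nodule 2, so that the top group was separated by a narrow gap. Means were 8427 ± 2889 in control liver, 1009 ± 411 in EPFs, 10661 ± 2499 in CK-19-negative and 15683 ± 2517 in CK-19-positive nodules (SD, n = 5 each).

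As Ces1d was chosen for its low signal in EPFs, its differences there are a description: -3.10 from control and -3.47 from CK-19-negative nodules on the log2 scale. CK-19-negative nodules were not called against control (0.37, interval -0.16 to 0.90, adjusted p = 0.3647 from limma). CK-19-positive nodules were 0.95 above control and 0.58 above CK-19-negative nodules, ranks 325 and 401 of 6102 genes. Against EPFs they were 4.05 higher, or 16.6-fold, the largest rise of the 6102 genes tested. The place of Ces1d in the set thus rests on the contrast with EPFs. Genes of the carboxylesterase family are alike in sequence, and whether the probe reads more than 1 of them was not tested.

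**Figure D2:**
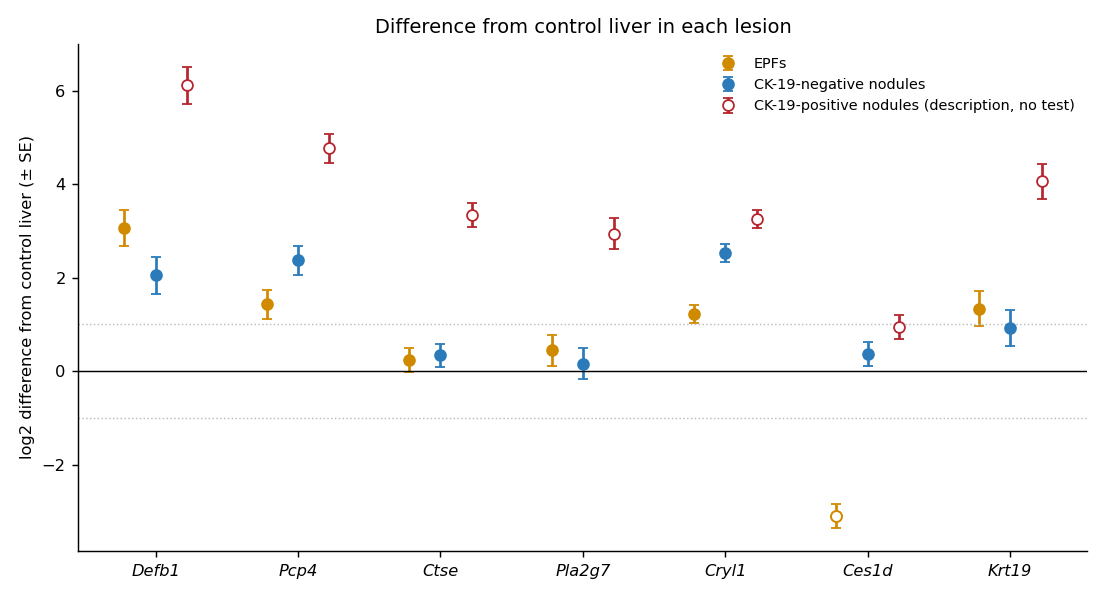
Log2 difference from control liver (± SE from limma) of the 6 genes and Krt19 in EPFs, CK-19-negative and CK-19-positive nodules (5 arrays each); open circles are contrasts used in choosing the genes (CK-19-positive nodules, and Ces1d in EPFs), with no test, and dotted lines mark 2-fold. Ctse and Pla2g7 stay within 2-fold of control outside CK-19-positive nodules, and Ces1d is the one gene below control in EPFs.

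Counted over the set, 3 of the 6 genes were called higher in EPFs than in control (Defb1, Pcp4 and Cryl1), where 6.26% of the 6102 genes tested were called higher and 6.15% lower, the latter beside Ces1d, which was chosen on that contrast. In CK-19-negative nodules 3 were called higher and none lower against control, beside 1.29% higher and 0.656% lower of all genes tested. The 2 earlier or CK-19-free lesions, compared with each other, gave Defb1 as higher in EPFs and Cryl1 as lower, with Ces1d again lower by choice, beside 4.13% and 4.79% of all genes. Every EPF array was above every control array for 4 of the 6 genes (Defb1, Pcp4, Pla2g7 and Cryl1), a property of 21.9% of all genes tested, and every CK-19-negative array above every control for 2 (Pcp4 and Cryl1), a property of 6.21%. EPFs and CK-19-negative nodules were compared with the same 5 control arrays. Because the genes were chosen on these arrays, the counts describe the set and test nothing.

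The order of the levels can be read gene by gene from these values. For Ctse the control, EPF and CK-19-negative levels overlapped and none was called against another. For Pla2g7 every EPF array was above every control by a small margin, CK-19-negative nodules overlapped with both, and no pair of these 3 was called. For Defb1, EPFs ranked above CK-19-negative nodules, between control and the CK-19-positive group, with the middle pair at the edge of the threshold. For Pcp4 the middle pair was reversed, and its difference was under 2-fold. For Cryl1 each tested step was called. For Ces1d, EPFs were lowest, control and CK-19-negative nodules did not differ beyond their spread, and CK-19-positive nodules were at the top.

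Within a lesion type the genes did not rank the arrays alike. Krt19, the gene behind the staining, had signals of 7686, 3549, 3507, 2790 and 2738 in CK-19-positive nodules 1 to 5. Nodule 1 was also the brightest for Pla2g7, but not for the other 5 genes. Nodule 5 had the lowest signal of its type for Krt19, Ctse, Pla2g7 and Cryl1 and the highest for Defb1. Nodule 2 was the lowest for both Defb1 and Pcp4, and the highest for Ctse, Cryl1 and Ces1d. The ratio of the brightest to the dimmest CK-19-positive nodule was 1.43 for Ces1d, 1.501 for Defb1, 1.64 for Cryl1, 2.59 for Ctse, 2.80 for Pcp4 and 8.74 for Pla2g7.

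Among CK-19-negative nodules Krt19 gave 197.4, 1181, 578.4, 199.8 and 516.1, so that nodules 1 and 4 were below the control range of 206.1 to 248.0 and nodules 2, 3 and 5 above it. The same 2 nodules had the lowest signals of Defb1, Ctse and Pla2g7 in their group. Nodule 4 was also the lowest for Pcp4 and Ces1d, but second highest for Cryl1. Of the 6 genes, Defb1 varied most in this group, 9.52-fold between nodules 5 and 4, while Cryl1 varied 1.54-fold and Pla2g7, near background, 1.302-fold. EPF pool 2 had the highest Krt19 signal of the 5 pools (1118, the others 370.9 to 635.2). It was also the highest pool for Ctse and Pla2g7, and the lowest for Pcp4, Cryl1 and Ces1d. With 5 arrays a group, these orders are a description.

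**Figure D3:**
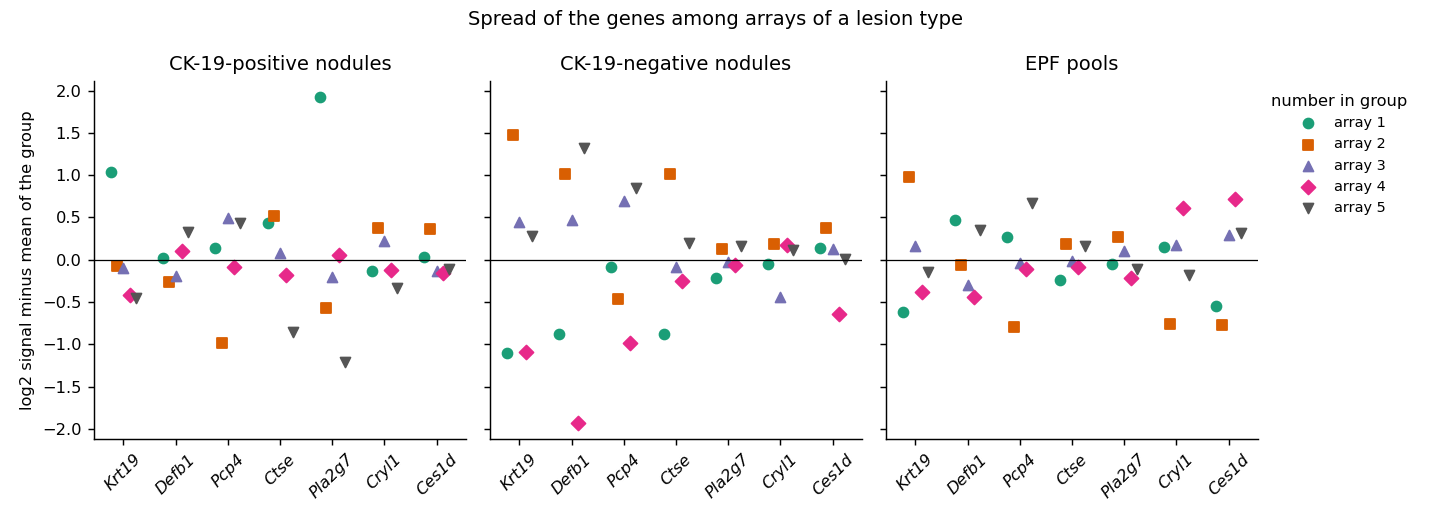
Log2 signal minus the group mean for Krt19 and the 6 genes on each of the 5 arrays of a lesion type, in 3 panels; the symbol gives the array's number in its group. CK-19-negative nodules 1 and 4 are below their group mean for Krt19, Defb1, Ctse and Pla2g7, and CK-19-positive nodule 1 stands out for Krt19 and Pla2g7.

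Over all 20 arrays the 6 genes fell into looser and closer pairs. The correlation of log2 signals was 0.91 for Defb1 and Pcp4 and 0.88 for Pcp4 and Cryl1, and lowest for Defb1 and Ces1d at 0.15. These correlations mostly hold the differences between the groups, and the arrays share chips.

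For each gene the 3 tested genes outside the set with the most similar course (Pearson r of log2 signal, 20 arrays) were picked. Among the nearest to Defb1 were Tceal9 (r = 0.98), whose mean signal was 250.9 ± 17.6 in control, 1018 ± 126 in EPFs, 657 ± 288 in CK-19-negative and 3925 ± 1380 in CK-19-positive nodules (SD, n = 5 each), and Tacc2 (r = 0.96), a centrosomal protein. The nearest to Pcp4 were the nucleotidase gene Entpd5 (r = 0.94), the microsomal glutathione transferase Mgst2 (r = 0.94) and the aldehyde oxidase Aox1 (r = 0.94). Entpd5 went from 2814 ± 512 and 3925 ± 682 in control and EPFs to 5704 ± 572 in CK-19-negative nodules and 11550 ± 1090 in the CK-19-positive ones (SD, n = 5 each). Entpd5 was also among the 3 nearest to Cryl1 (r = 0.93), after Reep6 (r = 0.95) and the lipid droplet protein Cidea (r = 0.93).

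The genes nearest to Ctse were Ampd3 (r = 0.98), an AMP deaminase, Rab7b (r = 0.97), a small GTPase of late endosomes, and Clba1 (r = 0.97). Outside CK-19-positive nodules the means of Clba1 were between 217 and 279. Those of Ampd3 and Rab7b were below 200, close to background, so that their likeness to Ctse rests mainly on CK-19-positive nodules. Rab7b, for example, averaged 146 ± 9.13, 166 ± 27.7 and 164 ± 22.2 in control, EPFs and CK-19-negative nodules, and 563 ± 103 in CK-19-positive nodules (SD, n = 5 each). Pla2g7 was followed by the chloride channel protein Clic5 (r = 0.94), the matrix protein Ltbp2 (r = 0.93) and the pancreatic carboxypeptidase Cpa1 (r = 0.92), which had means of 211 ± 34.0 in CK-19-negative nodules and 979 ± 480 in the CK-19-positive ones (SD, n = 5 each). Outside CK-19-positive nodules the means of Clic5 (122 to 152), Ltbp2 (159 to 182) and Cpa1 (174 to 211) were close to background. Their likeness to Pla2g7 thus rests mainly on that group. The genes nearest to Ces1d were high in control and nodules and low in EPFs: the paraoxonase Pon3 (r = 0.98), the last enzyme of heme synthesis Fech (r = 0.97) and Pxylp1 (r = 0.96). Pon3 averaged 14080 ± 1270 in control liver, 5561 ± 987 in EPFs, 15130 ± 2040 in CK-19-negative and 15550 ± 1140 in CK-19-positive nodules (SD, n = 5 each).

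The genes that share a function with the 6 were read from 6 lists. In CK-19-positive nodules 4.95% of all tested genes were called higher and 4.9% lower than control, and 2.39% were called higher and 2.39% lower than in CK-19-negative nodules. Most relatives did not pass the thresholds. Of 9 tested genes for calmodulin and its partners, none was called in any lesion against control, by limma or by the methods' t-test. In EPFs 7 of them had an unadjusted p under 0.05 from limma, in CK-19-positive nodules 6 and in the CK-19-negative ones 1. The share of all tested genes under that unadjusted threshold was not counted. Such counts, here and for the lists below, therefore do not show that a list moved more than other genes. The log2 differences of the 9 genes in CK-19-positive nodules ranged from -0.37 to 0.55 (median 0.26, beside -0.01 over all genes tested). Pcp4 stood at 4.77 in this contrast, on which it was chosen, so that its place outside that range is a description.

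Of the 19 antimicrobial proteins listed, 15 had a named probe and 5 were bright enough to test, and 2 rose in CK-19-positive nodules against control (median 0.53). These were Wfdc2, a secreted WAP-domain protein (log2 fold change 1.06, adjusted p = 2.605e-05 from limma), and the leukocyte protease inhibitor Slpi (1.10, adjusted p = 0.0005632). Slpi was also higher than in CK-19-negative nodules, at 3500 ± 1020 against 1256 ± 375 (SD, n = 5 each; 2.83-fold, adjusted p = 4.34e-05). In EPFs, where Defb1 rose, Wfdc2 fell by 1.52 (adjusted p = 1.419e-07 from limma). The peptidoglycan-binding protein Pglyrp1 was 1.88 above control in EPFs. It passed the filter only through EPFs (240.0 to 921.4), so this difference is a description. Its signals were at background in control (116.1 to 151.1) and CK-19-negative nodules (119.9 to 144.0), and 165.0 to 203.7 in CK-19-positive nodules. None of the 5 tested genes was called in CK-19-negative nodules by either test, and none had an unadjusted p under 0.05 there from limma.

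Among 11 tested cathepsins and inhibitors, 1 rose in CK-19-positive nodules (median of the list 0.40). This was Lgmn, which encodes legumain, a lysosomal cysteine protease, with 3984 ± 1160 against 908.5 ± 213 in control and 1104 ± 298 in nodules without CK-19 (SD, n = 5 each). Its log2 fold change was 2.11 against control (adjusted p = 1.323e-08 from limma) and 1.84 against CK-19-negative nodules (adjusted p = 5.283e-07). In EPFs 2 of the 11 fell, the lysosomal proteases Ctsc (-1.23, adjusted p = 3.265e-06) and Ctsh (-1.06, adjusted p = 2.031e-07). None of the 11 was called in CK-19-negative nodules against control by either test, and 2 had an unadjusted p under 0.05 from limma.

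Of 13 tested phospholipases A2 and enzymes of platelet-activating factor, 1 was called. Pla2g12a, a secreted phospholipase A2, rose by 2.00 in EPFs, 1.12 in CK-19-negative nodules and 1.75 in the CK-19-positive ones (adjusted p = 8.772e-07, 0.004572 and 7.513e-06 from limma). Of these 3 rises, the methods' t-test did not call that in CK-19-negative nodules. The other 12 were called in none of the 3 by limma, and the list's median in CK-19-positive nodules was 0.003.

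In the glucuronate and polyol pathway to which Cryl1 belongs, changes went both ways. Of 10 tested genes, 2 rose and 3 fell in EPFs, 2 rose and 2 fell in CK-19-positive nodules, and 1 rose and 1 fell in CK-19-negative nodules. In CK-19-negative nodules the methods' t-test called 1 gene of the list. Ugdh, which makes UDP-glucuronate, rose in all 3 lesions, by 1.85 in EPFs, 1.26 in CK-19-negative and 2.45 in CK-19-positive nodules (adjusted p = 1.323e-08, 3.285e-05 and 2.479e-10 from limma). It was also higher in CK-19-positive than in CK-19-negative nodules, at 21540 ± 3350 against 9662 ± 2980 (SD, n = 5 each; 1.20, adjusted p = 2.55e-05). Ugp2, which makes UDP-glucose, rose by 1.23 in EPFs and by 1.05 in nodules with CK-19. Gulo, the gulonolactone oxidase of vitamin C synthesis, acts on the lactone of L-gulonate, the substrate of the Cryl1 enzyme. Gulo fell by 1.47, 1.09 and 2.10 in EPFs, CK-19-negative and CK-19-positive nodules (adjusted p = 0.0007451, 0.02906 and 1.937e-05 from limma). Its signals in CK-19-negative nodules (268.3 to 1581.3) overlapped with those of control (1168.2 to 2405.1). Rgn, which encodes the gluconolactonase regucalcin, fell in EPFs (-2.16) and in nodules with CK-19 (-1.38), while its -0.50 in CK-19-negative nodules was under 2-fold.

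Of 12 tested carboxylesterases and neutral lipid hydrolases, Ces2c rose in EPFs by 2.28, in contrast to Ces1d in the same arrays, and by 1.10 in CK-19-negative nodules and 1.86 in the CK-19-positive ones (adjusted p = 4.779e-11, 2.441e-05 and 1.666e-09 from limma). Its means were 970 ± 243 in control liver and 4652 ± 881 in EPFs (SD, n = 5 each). Lipc, the hepatic lipase, fell by 1.60 in EPFs and by 1.15 in nodules with CK-19, while its -0.50 in CK-19-negative nodules was under 2-fold. The other 10 were called in no lesion against control.

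**Figure D4:**
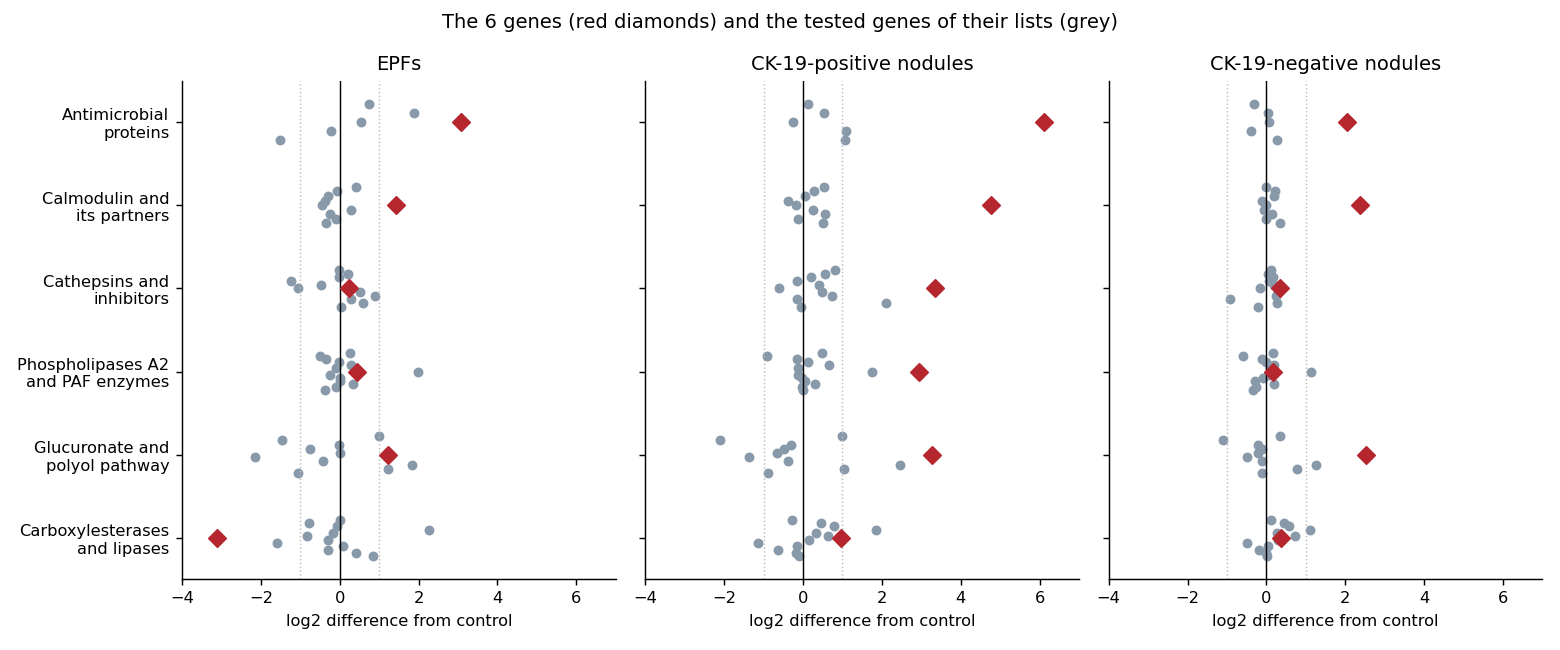
Log2 difference from control of the 6 genes (red diamonds) and of the tested genes of their lists (grey) in the 3 lesion types, 1 panel each; dotted lines mark 2-fold. Most grey points lie within 2-fold of control. In the EPF panel the lists of the glucuronate and polyol pathway, the carboxylesterases and the antimicrobial proteins have genes beyond 2-fold on both sides. The list of the glucuronate and polyol pathway has them in all 3 panels.

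Markers of other cell types also differed between the groups. The summed signal of 8 biliary and oval cell markers, Krt19 included, was 1579 to 1909 in control liver, 3239 to 6621 in EPFs, 1719 to 4690 in CK-19-negative and 8781 to 15551 in CK-19-positive nodules. That of 9 macrophage markers was 15374 to 23836, 10220 to 12989, 12675 to 14892 and 14982 to 24443 in the same order. These markers did not move alike. Means in CK-19-positive nodules were below control for Marco (332 ± 113 against 1536 ± 423, SD, n = 5 each), Vsig4, Cd163 and Mrc1. They were above control for C1qa, C1qb, C1qc (3797 ± 999 against 2765 ± 961), Aif1 and Cd14. The summed signal of 6 stellate cell and fibroblast markers was 4038 to 6013, 4015 to 8547, 3888 to 6702 and 8074 to 11645 in the order of groups above. Both the biliary and the stellate sums were highest in CK-19-positive nodules, and their part in these results was not tested. In the biliary list this came from Krt19, Epcam and Cd24, whereas the other 5 markers had higher means in EPFs, as with Tspan8 at 706 ± 166 there and 418 ± 105 in nodules with CK-19 (SD, n = 5 each). Krt7 and Cldn4 had means under 200 in all 4 groups. Neutrophil markers S100a9, Mpo and Elane were under 200 on all 20 arrays, as were Cd79b of B cells and Cdh5 of endothelium. The remaining neutrophil marker, S100a8, averaged 357 ± 102 in EPFs and 242 ± 58.3 in control (SD, n = 5 each). It averaged 258 ± 77.3 in CK-19-negative and 204.5 ± 59.6 in CK-19-positive nodules. The 6 lymphocyte markers summed to 1174 to 1485 in CK-19-positive nodules and 1228 to 1644 in control. The 3 endothelial markers summed to 1543 to 1967 in EPFs, 1125 to 1578 in CK-19-positive and 984 to 1427 in CK-19-negative nodules, and 1119 to 1658 in control. The 8 hepatocyte markers were bright in every group (152009 to 269768 in control, 201376 to 255897 in EPFs and CK-19-negative nodules, 224724 to 243943 in CK-19-positive nodules).

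The arrays were hybridised on 4 chips, and the chip was partly tied to the group. Chip 1 held all 5 CK-19-positive nodules together with 2 controls and 1 CK-19-negative nodule (number 5). The other 4 CK-19-negative nodules were on chip 2 with 1 control, 2 controls had chip 3 to themselves, and the 5 EPFs chip 4, so that EPFs and chip cannot be told apart. Within chip 1 the log2 difference of CK-19-positive nodules from control was 6.196 for Defb1, 4.84 for Pcp4, 3.41 for Ctse, 2.91 for Pla2g7, 3.27 for Cryl1 and 0.60 for Ces1d. The difference from the single CK-19-negative nodule there was 2.73 for Defb1, 1.56 for Pcp4, 2.81 for Ctse, 2.61 for Pla2g7, 0.61 for Cryl1 and 0.58 for Ces1d. Between CK-19-negative nodules and control, a block for chip gave 2.41 for Defb1, 2.71 for Pcp4 and 2.42 for Cryl1, all called as before. Within chip 1 (1 nodule against 2 controls) these were 3.46, 3.28 and 2.67, and within chip 2 (4 nodules against 1 control) 1.54, 2.23 and 2.22, where Cryl1 alone of the 3 was called and the lone array was taken to vary like the others.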

How the data were processed

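Expression was measured on Illumina RatRef-12 V1 one-colour arrays, 20 in all. The authors loaded the scans into BeadStudio 3.0.19.0 and BRB Array Tools and applied quantile normalization, and the deposited intensities are linear, from 95.5 to 44882.6, with no background step stated. The number of arrays, not read depth, limits the precision. A second table holds 40 columns whose names match no label, and it was not used.

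Of 22523 probes, 13793 had a gene in the platform annotation (13752 of these were matched to the RefSeq gene table), the brightest probe stood for a gene, and 6102 of 13337 genes were tested (5 or more arrays over a signal of 200). Log2 signals were fitted with limma 3.58.1 in R 4.3.3, using 1 model of group means for the 20 arrays and Benjamini-Hochberg adjusted p over the 6102 genes. The script was tested on simulated data. Groups come from the labels. Array numbers within a group pair nothing. No 2 arrays shared more than 0.133% of their values.

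The members, the lists and the rules were chosen with earlier results of these data known. The text names the 6 genes, Krt19, the 3 genes closest to each by correlation, and from each list the genes called against control, at most 4. Of these, 1 gene close to Defb1 is not reported here. Bounds set dim arrays to 200. Alternatives were other filters, an offset of 50, a background level (the 10% point, 128.1) subtracted, a floor of 300, every probe, chip as a block or alone, only 2 groups, the methods' t-test (named there for the study's general statistics, beside a random-variance model for the arrays), and each array left out.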

Additional observations from a re-analysis of the deposited data

Results flagged for a closer look

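In 28 groups of 5 arrays (the 6 genes and Krt19 in 4 groups), 2 had an array far from the others, where chance flags about 1 in 20 groups. Pcp4 on control array 5 had a signal of 228.3, and the other 4 controls lay between 177.9 and 181.1. Krt19 in CK-19-positive nodule 1 had 7685.6, and the other 4 nodules of this type 2738 to 3549. The change from control differed between EPFs and CK-19-negative nodules, by limma's direct contrast, for Defb1 by 1.009 on the log2 scale (adjusted p = 0.03625) and for Cryl1 by -1.316 (adjusted p = 5.493e-06). For Ces1d the same difference was -3.47, with -3.10 in EPFs and 0.37 in CK-19-negative nodules; as the gene was chosen for its low signal in EPFs, this is a description.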

How the results depend on the processing

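No called result changed direction. Ctse, not called between EPFs and CK-19-negative nodules (-0.098), ranged there from -0.316 to 0.155 on leaving out 1 array. Counting each result under each setting, 740 values gave the same call or a value within the spread between arrays, 24 moved further, 16 lost a call and 6 gained one. The cause of these changes was not tested, beyond what a setting itself does: subtracting a background level widens differences of dim genes, and a floor narrows them.

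With the background level subtracted, 1381 genes were called in EPFs against control (757 without), 285 in CK-19-negative nodules (119), 1084 in CK-19-positive nodules (601), 565 between the nodule types (292) and 1165 between EPFs and CK-19-negative nodules (544). The log2 difference of CK-19-positive nodules from control became 9.012 for Defb1, 6.417 for Pcp4, 4.606 for Ctse, 5.422 for Pla2g7 and 4.122 for Cryl1. From CK-19-negative nodules it became 4.83 for Defb1, 4.205 for Ctse and 4.833 for Pla2g7, and from EPFs 4.071 for Ctse, 3.811 for Pla2g7 and 4.272 for Ces1d. Pla2g7 gained a call in EPFs (1.611), as did Pcp4 between EPFs and CK-19-negative nodules (-1.157).

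With signals under 300 raised to 300, Pcp4 lost its call in EPFs (0.768), and Defb1 and Pcp4 were 5.011 and 4.096 above control in CK-19-positive nodules. With 50 added, Defb1 was 5.682 above control there. Defb1 lost its call between EPFs and CK-19-negative nodules without a filter (1.009), with 50 added (0.908), the background level subtracted (1.623), the floor (0.814), a random block for chip (0.962), only the 2 groups (1.009) and the methods' t-test (1.009). That test also took its call in CK-19-negative nodules (2.056).

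Fits within a chip hold fewer arrays, and on chip 2 a single control. There, 28 genes were called in CK-19-negative nodules, and Defb1 (1.541) and Pcp4 (2.229) were not. With chip as a fixed block, Defb1 was 5.847 above control and 3.433 above CK-19-negative nodules in CK-19-positive nodules, and Ces1d 0.722 and 0.338. Within chip 1, Defb1 was 2.735 and Pcp4 1.556 above the CK-19-negative nodule, and Ces1d 0.604 above control.

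Leaving out 1 array at a time, the difference between EPFs and CK-19-negative nodules ranged from 0.528 to 1.341 for Defb1 and from -1.18 to -0.722 for Pcp4, and that of Defb1 between the nodule types from 3.58 to 4.393. The study's filter, as rebuilt here on these 20 arrays, left out Ctse and Pla2g7, which have no value under it. No paired analysis was possible because every array of a group carries one and the same replicate number in the labels. Signals near background and 5 arrays a group limit what can be seen.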
